A study of Mus musculus with 35 samples.

Results

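The genes described here are 10 regulators and matrix genes of cartilage, chosen by name out of the 23366 genes in the RNA count table of a study of the histone demethylase UTX in mouse cranial neural crest. They are Sox9, Sox5 and Sox6, Acan, Hapln1, Matn1, Matn3, Matn4, Comp and Lect1. Of these, 9 of 10 had enough reads for testing, as did 14521 genes in all; Comp did not. UTX, encoded by the X-linked gene Kdm6a, removes methyl groups from lysine 27 of histone H3.

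The RNA came from crest cells of E12.5 embryo heads, sorted by flow cytometry for the Tomato reporter, with 2 libraries in each of 3 groups. The wild-type group, wt1 and wt2, was male, and its genotype was WT Wnt1-Cre. The male knockout, mko1 and mko2, was Utx fl/y, Wnt1-Cre, and the female knockout, fko1 and fko2, was Utx fl/fl, Wnt1-Cre. All 3 groups therefore carried Wnt1-Cre and the Rosa-Tomato reporter, so floxed Utx was deleted only where Wnt1-Cre had been active and cells outside that lineage kept it. There was no female wild type, so in the female comparison sex goes with genotype. The labels do not say whether the libraries came from separate embryos, so p-values measure the spread between these libraries, which may be technical.

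Cartilage of the face forms from neural crest mesenchyme that condenses and switches on Sox9, a transcription factor needed for the chondrocyte fate. SOX5 and SOX6 have no activation domain of their own and act beside SOX9 on cartilage genes. Their targets build a matrix in which type II collagen fibrils hold aggrecan, a large proteoglycan that draws in water. Hapln1 encodes the link protein that fixes aggrecan to hyaluronan, matrilins and COMP connect fibrils and proteoglycans, and Lect1 (now Cnmd) encodes chondromodulin, which keeps blood vessels out of cartilage.

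The promoters of 4 members are shown because Hapln1 and Lect1 were the tested members higher in all 4 knockout libraries than in both wild-type libraries, and Acan and Matn1 were among those that differed most between libraries of the same genotype. Each runs 5′ to 3′ on the strand of the gene over the 250 bases before the annotated start, in RefSeq on build GRCm38.p6. Capitals mark ACAANG, where N is any base, AACAAT, or TATAAA, on either strand. ACAANG is looser than the sites that SOX proteins bind, so a match need not be one.
Hapln1, chr13:89540386-89540635, plus strand: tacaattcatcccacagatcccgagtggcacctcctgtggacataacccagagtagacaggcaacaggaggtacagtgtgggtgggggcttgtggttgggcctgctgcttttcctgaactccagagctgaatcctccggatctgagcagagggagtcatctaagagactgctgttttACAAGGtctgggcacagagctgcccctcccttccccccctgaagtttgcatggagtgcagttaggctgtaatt
Lect1, chr14:79662184-79662433, minus strand: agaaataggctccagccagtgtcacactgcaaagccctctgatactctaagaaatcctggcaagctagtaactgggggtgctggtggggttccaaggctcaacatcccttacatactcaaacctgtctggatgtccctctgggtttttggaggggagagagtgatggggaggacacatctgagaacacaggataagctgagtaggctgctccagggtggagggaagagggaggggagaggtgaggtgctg
Acan, chr7:79052976-79053225, plus strand: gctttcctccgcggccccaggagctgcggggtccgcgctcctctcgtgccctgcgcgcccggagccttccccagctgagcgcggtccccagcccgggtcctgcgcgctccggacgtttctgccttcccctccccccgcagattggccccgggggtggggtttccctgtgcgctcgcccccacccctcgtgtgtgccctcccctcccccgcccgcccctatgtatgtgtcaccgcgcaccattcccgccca
Matn1, chr4:130944135-130944384, plus strand: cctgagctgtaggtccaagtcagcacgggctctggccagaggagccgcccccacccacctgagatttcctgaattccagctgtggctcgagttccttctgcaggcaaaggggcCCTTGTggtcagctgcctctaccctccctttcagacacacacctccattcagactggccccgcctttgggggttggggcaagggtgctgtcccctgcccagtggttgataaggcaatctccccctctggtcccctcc

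Hapln1 held ACAAGG with its first base 73 bases before the start, and Matn1 held the same letters on the other strand, read as CCTTGT, from 137 bases before it. The windows of Lect1 and Acan held none of the 3 marked motifs, and that of Acan held GGGCGG, which SP-family factors bind, 3 times on the other strand. Over the 8 members with such windows, 5 had ACAANG in at least 1 window. Counted by window it was in 9 of 14, and 5 of those were alternative starts of Sox6, while 36.3% of 32841 RefSeq windows of the same length held it. AACAAT was in 1 of 14 windows against 9.4% of all, TATAAA in 1 of 14 against 12.4%, and GGGCGG in 5 of 14 against 32.7%. AACAAT can overlap ACAANG where a G follows it. A match is a description of letters and not a binding site.

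The 6 libraries fall into 2 sets by a property of the reads. Libraries wt1, mko2 and fko1, called set 1 here, had between 21.3% and 22.0% of their reads outside annotated genes, and libraries wt2, mko1 and fko2, called set 2, had between 27.5% and 27.8%. The labels name no such sets, and they were drawn with these data in view; each holds 1 library of every genotype. Gene reads ranged from 14513993 to 16350892 per library. The ribosomal precursor Rn45s took between 0.383% and 0.937% of gene reads in wild type and between 2.99% and 4.97% in the knockouts. Kdm6a itself was read at 47.3 and 55.5 CPM (counts per 1000000 gene reads) in wt1 and wt2, 39.7 and 30.8 in mko1 and mko2, and 49.7 and 62.7 in fko1 and fko2. These are reads over the whole gene, in which a transcript lacking the floxed part still counts, so they do not check the deletion. Uty, on the Y chromosome, lay between 33.3 and 42.4 CPM in the 4 male libraries and at or below 0.649 in the females, which matches the labelled sexes. As log2 CPM minus the mean over the 6 libraries, Uty was -5.86 in fko1 and -3.28 in fko2. The Y genes Ddx3y, Eif2s3y and Kdm5d were also higher in fko2 than in fko1. The source of these reads was not tested. All 10 markers of facial crest mesenchyme were present, among them Prrx1 at 509 CPM or more in every library.

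Among the regulators, Sox9 stood at 154 and 145 CPM in wt1 and wt2, at 166 and 151 in mko1 and mko2, and at 138 and 193 in fko1 and fko2. Both its lowest and its highest library were female knockouts, and the groups overlapped. Sox5, which partners SOX9, measured 62.1 and 61.6 CPM in the wild types, 58.4 and 51.6 in mko1 and mko2, and 49.3 and 72.6 in fko1 and fko2. Sox6 measured 56.9 and 48.9 CPM, 51.4 and 39.5, and 45.3 and 65.3 in the same order. For both partners, as for Sox9, fko2 was the highest library and the wild-type values lay inside the range of the knockouts.

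Acan, the core protein of aggrecan, stood at 15.8 and 10.3 CPM in wt1 and wt2, at 22.5 and 14.4 in mko1 and mko2, and at 13.7 and 38.2 in fko1 and fko2. Library wt1 was above mko2 and fko1, so the groups overlapped. Hapln1, the link protein, stood at 25.8 and 24.9 CPM in wt1 and wt2, at 54.3 and 47.9 in mko1 and mko2, and at 40.2 and 90.7 in fko1 and fko2. Its 4 knockout libraries were all above both wild-type libraries, as for 2 of 9 members and 9.83% of all genes tested on CPM. With the scaling factors used in the fits below, it was again 2 members, against 18.8% of all genes. The members' share was then near that of all genes. The 2 female knockouts lay farther apart for Hapln1 than any other pair of one genotype.

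Among the matrilins, adaptor proteins of the matrix, Matn1, which is largely restricted to cartilage, had only 34 and 12 reads (2.24 and 0.827 CPM) in wt1 and wt2, 48 and 14 (3.2 and 0.856 CPM) in mko1 and mko2, and 22 and 70 (1.35 and 4.54 CPM) in fko1 and fko2. Matn3 had 19 and 13 reads in wt1 and wt2, 21 and 20 in mko1 and mko2, and 17 and 46 in fko1 and fko2. In both genes fko2 was the highest library, and each knockout group reached into the wild-type range. Matn4, which is also made outside cartilage, measured 56.3 and 34.7 CPM in wt1 and wt2, 46.8 and 26.5 in mko1 and mko2, and 34.1 and 51.7 in fko1 and fko2. It was the tested member whose highest library was not fko2 but wt1. Rbpjl overlaps Matn4 in the GRCm38.p6 gene table and has its own entry in the counts. The counts keep ambiguous reads apart, and how reads of the overlap were assigned is not given. Matn4 may therefore lack some of its own reads or hold some of Rbpjl.

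Comp, a pentameric matrix protein of cartilage and tendon, was near the limit of detection, with 1 and 2 reads in wt1 and wt2, 5 and 4 in mko1 and mko2, and 1 and 1 in fko1 and fko2. No difference could be read from so few. Lect1 measured 27.4 and 14.3 CPM in wt1 and wt2, 29.3 and 32.6 in mko1 and mko2, and 29.9 and 40.2 in fko1 and fko2. Its knockout libraries were all above both wild-type libraries, with wt1 just under the lowest of them and wt2 far below.

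**Figure D1:**
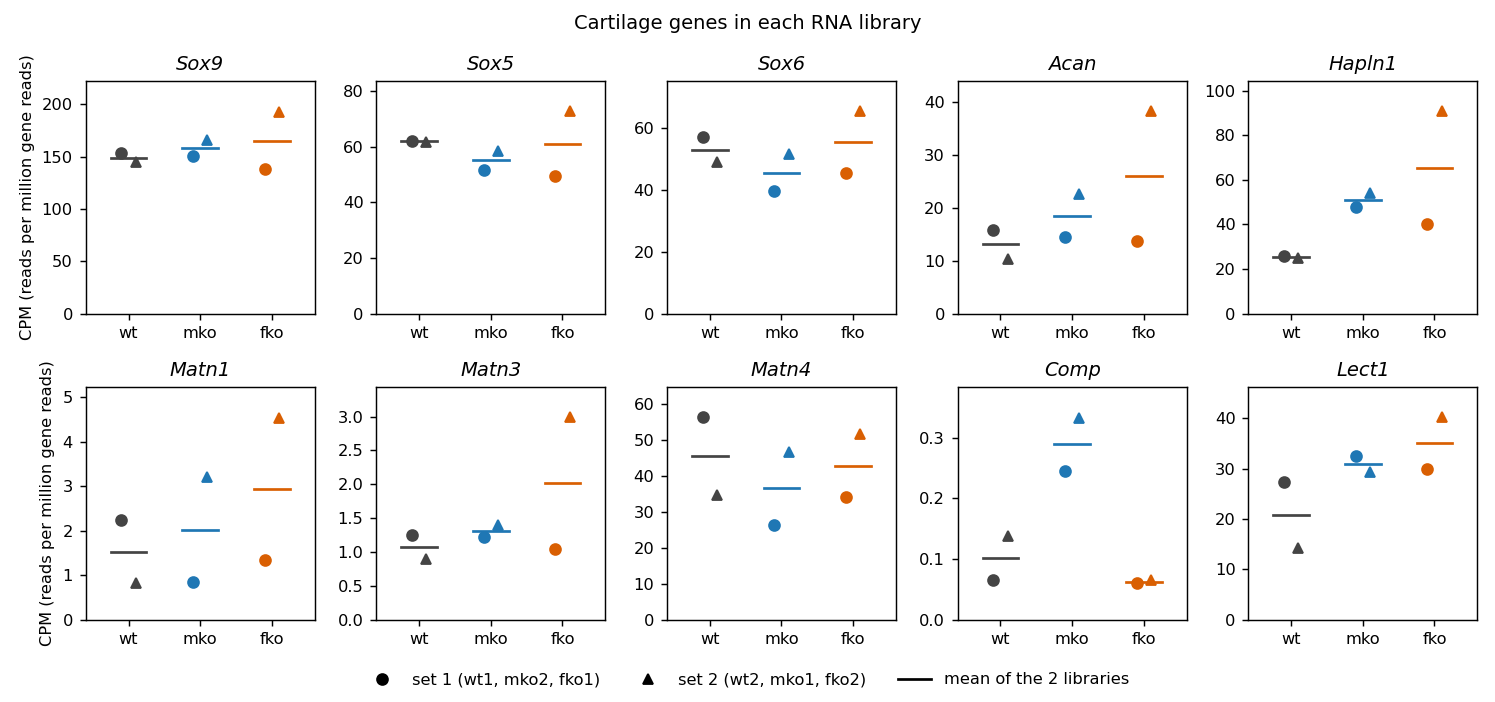
CPM of each of the 10 genes (vertical axes, each from 0) in the 6 RNA libraries, grouped by genotype. Circles are libraries of set 1, triangles those of set 2, and lines the mean of the 2 libraries; Hapln1 and Lect1 are the tested genes with every knockout point above every wild-type point, and fko2 is the highest point for 8 of the 9 tested genes.

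Hapln1 was the one member past the threshold when the average of the 2 knockout groups was set against the controls. Its level was 25.4 ± 0.585 CPM in wild type (SD, n = 2 libraries), 51.1 ± 4.50 in male and 65.5 ± 35.7 in female knockouts, a log2 fold change of 1.30 ± 0.265 (SE, or 2.46-fold; 95% interval 0.70 to 1.90) with an adjusted p of 0.0297. This is edgeR's quasi-likelihood test over all genes with Benjamini-Hochberg adjustment and a threshold of 0.05. So 1 of 9 tested members was higher and none was lower, where 5.11% of all genes passed in either direction and 1.07% were higher. The Hapln1 call was lost without wt2 (1.23, adjusted p = 0.0743), without mko1 (1.26, 0.0813) or without mko2 (1.34, 0.0674), and held without wt1, fko1 or fko2. In bulk RNA, more cells of a type and more RNA per cell cannot be told apart.

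The next nearest were Lect1 and Acan. Lect1 averaged 20.9 ± 9.25 CPM in wild type, 30.9 ± 2.36 in male and 35.0 ± 7.28 in female knockouts, with a log2 fold change of 0.77 ± 0.246 for both knockouts that did not pass (adjusted p = 0.109). Acan averaged 13.1 ± 3.89, 18.4 ± 5.72 and 25.9 ± 17.3 CPM in the same order, with a log2 fold change of 0.84 ± 0.376 (adjusted p = 0.195). For Acan the SD of the female knockout exceeded its difference from wild type. Matn1 and Matn3, at 0.76 ± 0.640 and 0.70 ± 0.439, had wider errors still and did not pass (adjusted p = 0.463 and 0.324).

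For the 3 SOX genes and Matn4 the fitted differences were small. Sox9 gave a log2 fold change of 0.24 ± 0.139 (95% interval -0.08 to 0.55), Sox5 gave 0.02 ± 0.143 (-0.30 to 0.35) and Sox6 gave 0.04 ± 0.164 (-0.34 to 0.41). Matn4 gave -0.09 ± 0.266 (-0.69 to 0.51). None of these passed. The median over the 9 members was 0.70, with 8 of 9 above 0, against 0.01 over all genes tested, of which 51.1% were above 0. On plain CPM the median of all genes was lower in the knockouts than in wild type by 0.108 on the log2 scale; the factors used in the fits moved it by 0.12, to 0.01.

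Taken one at a time against the same wild-type libraries, neither knockout gave a member past the threshold in edgeR's test. The female knockout gave 0 of 9, with 3 at an unadjusted p under 0.05, where 1.12% of all genes passed and 0.303% were higher. The male knockout gave 0 of 9, with 2 at an unadjusted p under 0.05, where 2.34% passed and 0.379% were higher. Hapln1 came nearest in both, with a log2 fold change of 1.47 ± 0.293 in the female knockout (adjusted p = 0.0545) and 1.13 ± 0.293 in the male (adjusted p = 0.0822). In the female knockout Hapln1 was 0.81 without fko2, 1.91 without fko1 and 1.52 without wt1, a call in each. It was 1.40, 1.47 and 1.47 without wt2, mko1 or mko2, with no call. In the male knockout it was 1.13 and 1.12 without fko1 or fko2, a call in each. It was 1.18, 1.06, 1.05 and 1.21 without wt1, wt2, mko1 or mko2, with no call. Each of these fits left a group with 1 library. DESeq2, which called 3.6% and 5.21% of all genes, called Hapln1 in both knockouts and Lect1 in the female. The 2 comparisons share their wild-type libraries. Medians over the members were 0.85 in the female knockout and 0.40 in the male.

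Female and male knockouts could be compared directly without shared controls. No member passed edgeR's test, none had an unadjusted p under 0.05, and DESeq2 also called 0, where 0.0344% of all genes passed in edgeR and 0.0275% in DESeq2. All 9 fitted values were above 0, from 0.05 for Sox9 to 0.60 for Matn3, where 56.0% of all genes were. That direction rested on fko2: without it 8 of the 9 values, all but Sox6, fell below 0, with Acan at -0.39, Hapln1 at -0.31 and Matn1 at -0.53. For Hapln1 the difference was 0.34 with a 95% interval of -0.30 to 0.98 on the log2 scale, which still allows either sex to be higher. No wild-type female was there to set against it.

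**Figure D2:**
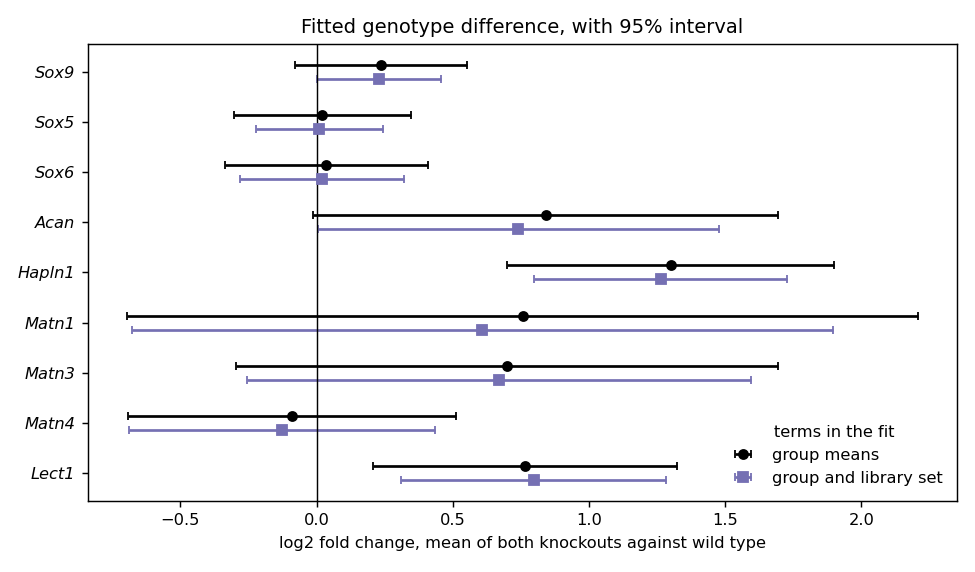
Fitted log2 fold change of the knockout average over the wild types (horizontal axis) for the 9 tested genes, from a fit of group means (circles) and a fit that adds the library set (squares); bars are 95% intervals. Hapln1 lies at 1.30 and Lect1 at 0.77 in the first fit. The intervals of Sox9, Sox5, Sox6, Matn1, Matn3 and Matn4 span 0 in both, that of Sox9 barely in the second.

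The library set was then entered as a term beside genotype, which compares knockout with wild type within sets. Hapln1 kept its size, at 1.26 ± 0.206 (adjusted p = 0.00314), and Lect1 passed too, at 0.80 ± 0.215 (adjusted p = 0.0216), so that 2 of 9 members were higher, both by edgeR's test over all genes. DESeq2 without the set called the same 2 genes, with 7.83% of all genes passing. In the fit with the set 32.6% of all genes passed and 16.3% were higher, so the members' share was near the background. Acan, at 0.74 ± 0.326, did not pass (adjusted p = 0.111). The female knockout alone gave Hapln1 at 1.41 ± 0.229 and Lect1 at 0.89 ± 0.242 (adjusted p = 0.00598 and 0.0299), where 23.3% of all genes passed and 12.2% were higher. The male knockout gave Hapln1 alone, at 1.12 ± 0.229 (adjusted p = 0.0106), where 24.7% passed and 12% were higher.

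The fitted differences depended on which wild-type library that fit held. For the mean of both knockouts Hapln1 was 1.63 without wt1 and 0.88 without wt2. In the same order Lect1 was 1.39 and 0.29, and Acan was 1.64 and -0.07. Matn4 changed direction, at 0.62 and -0.80 for the mean of both knockouts. It was 0.75 and -0.68 in the female knockout, and 0.50 and -0.92 in the male. Each of these fits left wild type with 1 library. Hapln1 was higher in every one of these fits.

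Between the sets themselves, with genotype in the fit, no member passed edgeR's test, although 14.4% of all genes did, 912 of them higher in set 2 and 1176 lower. None had an unadjusted p under 0.05, and DESeq2 called 0 as well, of 10.4% over all genes. The fitted set difference (set 2 over set 1) was largest for Matn1 at 0.83 on the log2 scale (adjusted p = 0.296) and Acan at 0.50 (adjusted p = 0.275), and was -0.24 for Lect1. These averages over genotypes joined library differences of opposite sign, which the values in each genotype show.

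In wild type the set 2 library was the lower one for all 9 members, a share not counted over all genes. On TMM-scaled library sizes the members' median difference in log2 CPM was -0.47, against 0.01 over all genes. Acan in wt2 was 0.652 times its level in wt1 (exact 95% interval 0.529 to 0.803), Matn1 0.370 times (0.174 to 0.732), Lect1 0.523 times (0.441 to 0.619) and Hapln1 0.968 times (0.837 to 1.12). These intervals cover counting error only and compare libraries, not conditions, since reads without molecular identifiers are not independent molecules. They excluded 1 for 6 of 9 members, and for how many of all genes they would was not counted. The wild-type libraries were thus nearly equal for Sox5 and Hapln1 and far apart for Matn1, Lect1, Matn4 and Acan.

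In the knockouts the set 2 library was the higher one. In the male knockout this held for 8 of 9 members, all but Lect1, with Acan in mko1 at 1.56 times its level in mko2 (1.32 to 1.85), Matn1 at 3.74 times (2.03 to 7.34) and Hapln1 at 1.13 times (1.03 to 1.25). In the female knockout it held for 9 of 9, with Acan in fko2 at 2.79 times its level in fko1 (2.39 to 3.27), Matn1 at 3.37 times (2.06 to 5.71), Hapln1 at 2.25 times (2.05 to 2.48) and Lect1 at 1.34 times (1.19 to 1.52). For Acan, Matn1 and Matn4 the 3 intervals all excluded 1, below it in wild type and above it in both knockouts. Over all tested genes, 7.07% had wt2 below wt1 with mko1 above mko2 and fko2 above fko1, and 8 of 9 members did; 8.39% were highest in fko2, and 8 of 9 members were. These patterns were noticed in the same libraries and carry no test.

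**Figure D3:**
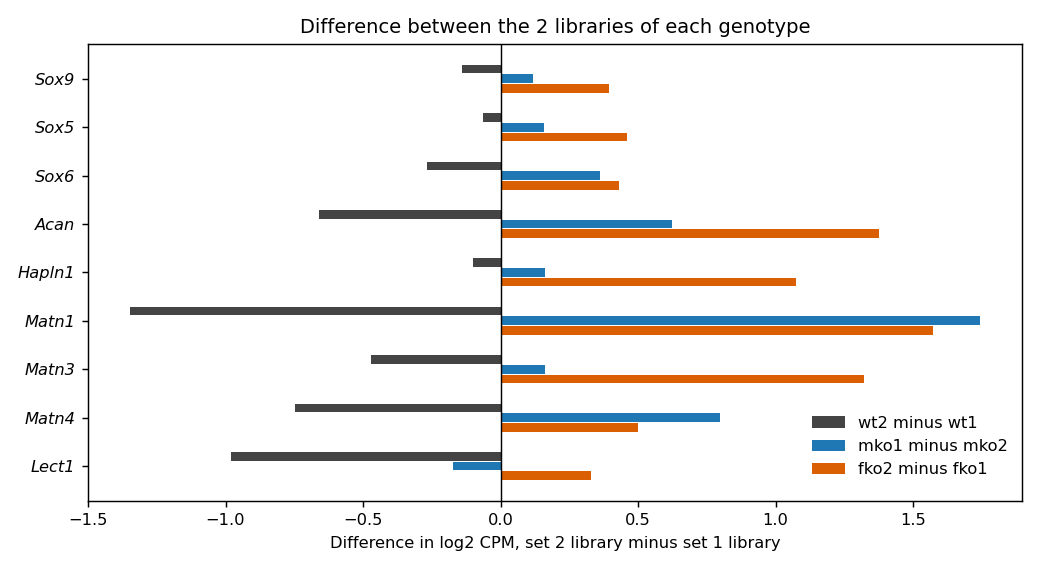
Difference in log2 CPM, on TMM-scaled library sizes, between the set 2 and the set 1 library of each genotype, 1 bar per genotype and gene. The wild-type bars point left for all 9 genes, from -0.06 for Sox5 to -1.35 for Matn1, and the knockout bars point right except that of Lect1 in the male knockout.

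The size of those opposite shifts was fitted in a model chosen because these values had been seen, as the set term of the knockouts minus that of wild type beside 3 group means. Wild type has 1 library per set, so its shift has no replicate, and the 1 residual degree of freedom comes from the knockouts. The fit therefore describes the pattern and is no independent test of it. It gave 1.68 ± 0.315 for Acan, 3.22 ± 0.604 for Matn1 and 1.40 ± 0.214 for Matn4 on the log2 scale, and all 9 values were above 0, with a median of 1.07 against 0.00 over all genes. These 3 members were past the threshold in edgeR, where 0.172% of all genes were (25 of 14521), but 0 members were with both knockouts treated as 1 group or with DESeq2, which each called 1 gene of all. Lars2 and Rn45s, whose highest library was 10.8 and 13.0 times their lowest in CPM, were also among the 25, with fitted values above 0 like those of the members. Their part in the members' shifts was not tested.

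Within set 1, Hapln1 and Lect1 were the members higher in both knockout libraries than in wt1. Hapln1 was higher by 0.99 in mko2 and 0.78 in fko1 than in wt1, and Lect1 by 0.35 and 0.27, as differences in log2 CPM on TMM-scaled library sizes. Acan differed by -0.04 and -0.07, and Sox9 by 0.08 and -0.02. Matn1, from few reads, differed by -1.17 in mko2 and -0.54 in fko1, and Matn4 by -0.98 and -0.58, both lower in the knockouts. In all, 4 of 9 members were higher in mko2 than in wt1 and 2 of 9 were higher in fko1. On plain CPM, Sox9 and Matn3 were also below wt1 in mko2.

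Within set 2 all 9 members were higher in both knockout libraries than in wt2. In mko1 the differences ran from 0.06 for Sox5, which turns negative on plain CPM, to 1.92 for Matn1, with a median of 0.70. In fko2 they ran from 0.34 for Sox5 to 2.37 for Matn1, with a median of 1.58. Acan was higher by 1.25 in mko1 and 1.97 in fko2, and Hapln1 by 1.25 and 1.96. The medians over all genes were within 0.02 of 0 in each of these comparisons. How many of all genes were higher in both knockout libraries of a set was not counted. All differences in set 2 use the same library wt2. With 1 library on each side they have no replicate check.

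**Figure D4:**
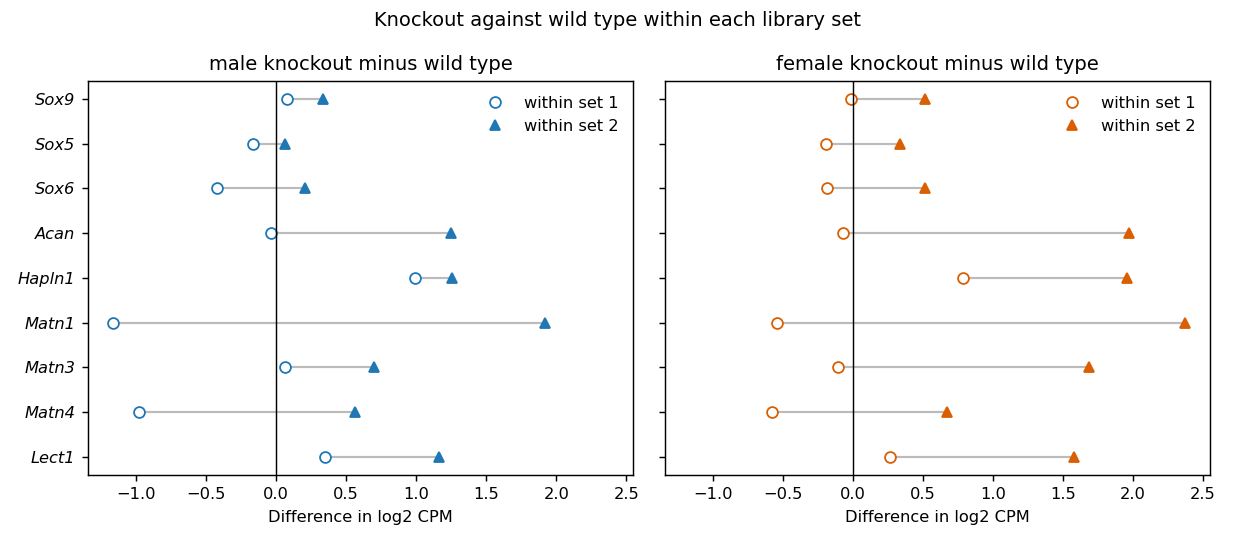
Difference in log2 CPM between a knockout library and the wild-type library of the same set, for the male (left) and female (right) knockout; open circles are set 1, triangles set 2, and grey lines join them. In set 2 all points lie right of 0, while in set 1 only Hapln1 and Lect1 do so in both knockouts.

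The members moved together across the 6 libraries. Their mean centred log2 CPM was -0.583 in wt2, -0.194 in mko2, -0.123 in fko1, -0.052 in wt1, 0.245 in mko1 and 0.706 in fko2. Acan followed the mean of the other members most closely (Pearson r = 0.992 over 6 libraries), then Sox9 (0.958), Matn3 (0.940) and Matn1 (0.895). Matn4 (0.627) and Lect1 (0.713) followed it least. These are descriptions over libraries that share depth and scaling.

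Outside the lists, the 8 genes most like the members' mean profile were chosen from 442 that averaged 5 CPM or more and had an SD of log2 CPM of at least 0.5. Bmper, a secreted modulator of BMP signalling, was first with r = 0.852, at 38.3 and 21.8 CPM in wt1 and wt2, 46.1 and 38.7 in mko1 and mko2, and 42.7 and 55.2 in fko1 and fko2. Dlx3, a homeobox gene of the branchial arches and of bone (r = 0.825), stood at 7.17 and 2.27, 9.8 and 5.87, and 7.55 and 9.93 CPM in the same order. Both were lowest in wt2 and highest in fko2. Ctgf, a matricellular protein made by chondrocytes among other cells, reached r = 0.759, with 14.1 CPM in wt2 and 38.4 in fko2. The others were Hfm1 (0.838), Gm5779 (0.816), Rmrp (0.809), 9530091C08Rik (0.777) and Tbrg3 (0.761).

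The cartilage collagens, which form the fibrils around aggrecan, split into groups. None of 7 passed for the mean of both knockouts in edgeR or DESeq2, and none had an unadjusted p under 0.05 in edgeR, with a median of 0.04. Col2a1, the main fibril collagen, stood at 781 and 755 CPM in wt1 and wt2, 783 and 596 in mko1 and mko2, and 714 and 956 in fko1 and fko2. It and the type IX collagens Col9a1, Col9a2 and Col9a3, which coat its fibrils, had the members' order, lower in wt2 than in wt1 and higher in the set 2 knockouts. The fitted size of those opposite shifts was 1.03 ± 0.189 for Col9a1 and 1.02 ± 0.203 for Col9a3, in the model chosen after the values were seen. Both were past the threshold in that edgeR fit, and neither was with DESeq2 or with both knockouts as 1 group.

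The other 3 collagens were higher in set 2 in all 3 genotypes and passed between the sets. Col11a1, which nucleates type II fibrils, was higher by 0.44 ± 0.0927 (log2, adjusted p = 0.0218), Col11a2 by 0.75 ± 0.173 (0.0261) and Col27a1 by 0.31 ± 0.0834 (0.0386). Over all genes 14.4% passed in that comparison.

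**Figure D5:**
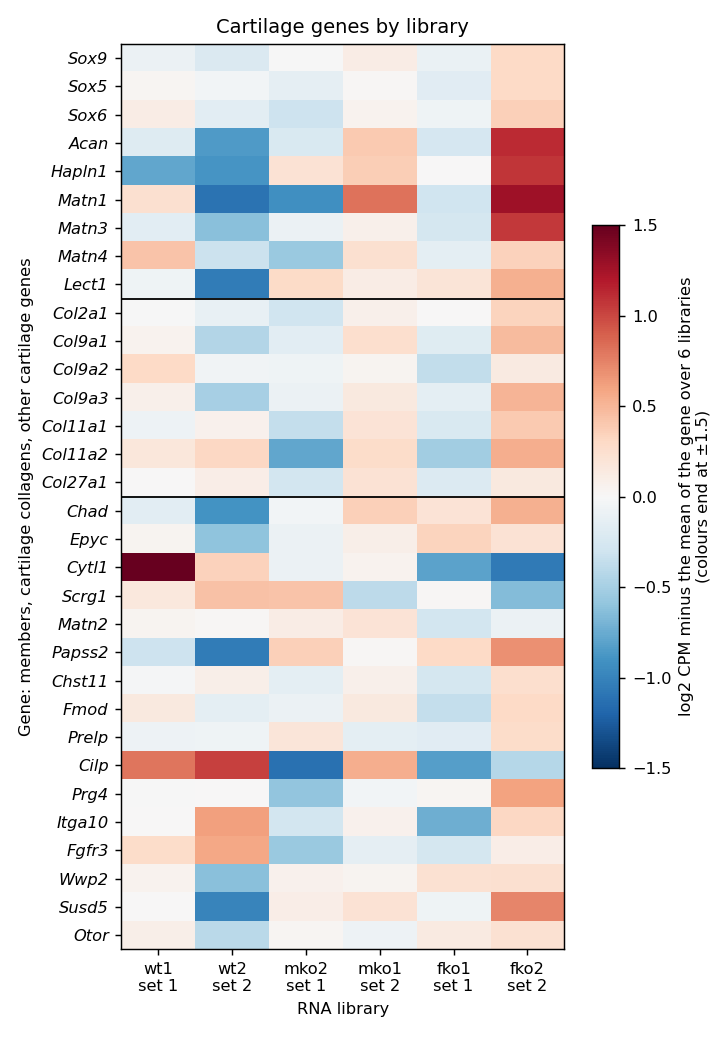
Log2 CPM minus the mean over the 6 libraries (colour, ending at ±1.5) for the members, the cartilage collagens and other cartilage genes, with black lines between the lists and libraries ordered by genotype and set. The wt2 column is blue for all 9 members, faintly for Sox5, and the fko2 column red, while Cytl1 and Fgfr3 are highest in wild type.

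Among 16 tested of 20 other cartilage genes, 1 was higher in the mean of both knockouts and 1 was lower. Papss2, which makes the sulfate donor for proteoglycans, was higher by 0.99 ± 0.224 (adjusted p = 0.0416), at 25.6 and 15.8 CPM in wild type and 30.2 to 49.6 in the knockouts. Cytl1, a secreted protein of cartilage, was lower by 1.63 on the log2 scale (fold change -1.63 ± 0.349, adjusted p = 0.0349), at 6.44 and 2.82 CPM in wild type and 0.909 to 2.07 in the knockouts. Fgfr3, the receptor that restrains chondrocyte growth, was at 40.6 and 52.3 CPM in wild type and 21.3 to 34.7 in the knockouts. In edgeR its difference of -0.64 ± 0.165 did not pass without the set term (adjusted p = 0.0610) and did with it (adjusted p = 0.00139), and DESeq2 called it without the set term.

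None of 16 signals and upstream factors passed in edgeR, 3 had an unadjusted p under 0.05, and DESeq2 called Foxc2. Nearest were the forkhead genes Foxc2 at 0.60 ± 0.144 (adjusted p = 0.0508) and Foxc1 at 0.42 ± 0.123 (0.0878), both known to act in early skeletal mesenchyme. Both were higher with the set in the fit, at adjusted p = 0.00733 and 0.00530. Of the hypertrophic and osteoblast genes 1 of 10 passed in edgeR, Spp1 (osteopontin), higher by 2.00 ± 0.389 (adjusted p = 0.0255), at 1.38 and 0.965 CPM in wild type and 2.57 to 5.46 in the knockouts. Col1a1, a chain of the main bone collagen, lay the other way, at 1200 and 1320 CPM in wild type and 602 to 992 in the knockouts. Its difference of -0.59 ± 0.166 did not pass in edgeR (adjusted p = 0.0783), DESeq2 called it beside Spp1, and with the set term in edgeR Col1a1 (-0.60 ± 0.0832, adjusted p = 0.00176) and its partner chain Col1a2 (-0.35 ± 0.0764, adjusted p = 0.00923) were lower. Of 12 family relatives of the members, Thbs3, a thrombospondin related to Comp, fell by 0.88 on the log2 scale (-0.88 ± 0.128, adjusted p = 0.00950). Ncan, the aggrecan relative of nervous tissue, fell by 0.99 (-0.99 ± 0.190, adjusted p = 0.0244). The 7 enzymes that cleave aggrecan and other matrix and the 8 tendon and joint genes gave no call in edgeR, where 0 and 3 had an unadjusted p under 0.05; DESeq2 called 1 of them, Dcx, a microtubule protein better known from neurons.

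Markers of other cell types moved with genotype and with single libraries. All 8 brain progenitor markers were lower in the knockouts, with summed levels of 183 and 220 CPM in wild type and 63.2 to 87.2 in the knockouts. Of the 8 neuron markers Elavl3 was lower (-0.94 ± 0.218, adjusted p = 0.0446), and they summed to 1580 and 1720 CPM in wild type and 895 to 1550 in the knockouts. The 10 facial mesenchyme markers, in which Dlx2 was lower (-0.72 ± 0.158, adjusted p = 0.0379), summed to 1810 and 1880 CPM in wild type and 1830 to 2110 in the knockouts. Erythroid markers, 2 of them at 0 in every library, ranged from 315 CPM in mko1 to 1320 in mko2. The 8 glial markers summed to 340 to 422 CPM, with no call in edgeR or DESeq2 and 1 unadjusted p under 0.05, and epithelial, endothelial, leukocyte and muscle markers to 20.2 or less each, with Des lower (-1.39 ± 0.331, adjusted p = 0.0490). Their part in the members' differences was not tested.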

How the data were processed

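RNA libraries were made with a kit that keeps strand, per the labels' protocols. The authors deposited raw counts for each gene. The submitters' processing notes name build mm9 and, with neither role nor version, HTSeq, TopHat2, Trimmomatic, SAMtools, Bowtie2, MACS2 and bedtools. The strand setting and annotation of the counting are not given in the sources used here. The table's 5 summary lines (reads in no gene and the like) were left out of library sizes.

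CPM are counts over the sum of gene reads, times 1000000. Genes were tested with edgeR 4.0.16 in R 4.3.3 (filterByExpr, TMM factors, quasi-likelihood F test, Benjamini-Hochberg adjustment over 14521 genes, threshold 0.05), with all 6 libraries in 1 fit of group means. The standard error is the log2 fold change over the root of F. The library set was a term of its own in a second fit, and another fit gave the knockouts and wild type separate set terms. Fits that leave a group with 1 library assume that it varies like the others. DESeq2 1.42.0, its size factors, TMM without the 10 most abundant genes and no filter on low counts served as alternatives. So did only the groups compared, a replicate block and each library left out in turn. Rn45s and Lars2 were among those 10 genes. The scripts were tested on simulated data. Log2 CPM used a prior count of 2. Exact intervals of library ratios came from Clopper-Pearson limits (scipy 1.17.1), and plots from matplotlib 3.10.9.

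Named are the members, Kdm6a, Uty and Xist, up to 4 genes per other list with the smallest p for the mean of both knockouts and up to 4 between sets, and the 8 genes most like the members; not all of these are described. The members and lists were chosen with earlier results of these data known. Of the members, 9 were found by symbol in the gene table of GRCm38.p6 and Lect1 by synonym, and 8 had promoter windows. No levels were compared between genes, since gene lengths of the counting annotation were not at hand. The histone and UTX files were not analysed here. One further gene is not reported here.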

Additional observations from a re-analysis of the deposited data

Results flagged for a closer look

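In every tested member the shift from set 1 to set 2 fitted jointly for both knockouts ran upward. That of wild type ran downward. For Lect1 the joint shift was 0.08, while mko1 alone stood at 0.898 times mko2 in CPM. A fit of the difference between the knockouts' shift and that of wild type was made because the shifts had been seen. The 3 members it put past the threshold are given here. For Acan the set 2 libraries were higher by 1.01 in the knockouts and lower in wild type (-0.67), a difference of 1.68 on the log2 scale. For Matn1, with 12 to 70 reads a library, the shifts were 1.75 and -1.48, a difference of 3.22. For Matn4 they were 0.65 and -0.75, a difference of 1.40. Each wild-type shift rests on 1 library per set and has no replicate, so the fit restates the pattern and gives it no independent support. The 3 members were past the threshold in that edgeR fit, where 0.172% of all genes were. With DESeq2 or with both knockouts as 1 group 0 members were.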

How the results depend on the processing

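Of the members, edgeR called 0 in the female knockout, 0 in the male knockout, 1 in the mean of both, 0 between the knockouts and 0 between the sets. DESeq2 called 2, 1, 2, 0 and 0, and the set as a term gave 2, 1, 2 and 0. Only the groups compared gave 1 in the male knockout and 0 in the other comparisons it could be run for; the mean of both knockouts uses every group. DESeq2's size factors, TMM without the abundant genes and no filter on low counts left all 5 counts as they were. With each library left out in turn the counts ranged from 0 to 2, 0 to 1, 0 to 3, 0 to 0 and 0 to 4. With the set as a term as well, an alternative chosen after seeing the data, they ranged from 1 to 8, 2 to 5, 2 to 6 and 0 to 1. Each of these fits left a group with 1 library, so their counts cannot be weighed as a result for the members. With the set as a term and all 6 libraries, 23.3% of all genes already passed in the female knockout. The share was 24.7% in the male knockout and 32.6% in the mean of both. With the set as a term and wt1 left out, Matn4 turned to 0.50 in the male knockout and 0.62 in the mean of both. With wt2 left out it turned to -0.68 in the female knockout. For the opposite set shifts, 3 members were called, against 0 with DESeq2, 0 with both knockouts as 1 group, and 0 to 5 in that fit with each knockout library left out. It could not be fitted without a wild-type library.

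Hapln1 was called in 9 of 12 alternative fits for the mean of both knockouts, with log2 fold changes from 0.965 to 1.52. Lect1 was called in 4 of 12 (0.337 to 1.35), and Acan in 1 of 12 (0.397 to 1.22). Genes called over the whole table moved too: for the mean of both knockouts from 742 to 1137 with DESeq2, 4735 with the set as a term and 215 to 2212 with a library left out, and between sets from 2088 to between 10 and 5111 with a library left out. The female knockout went from 163 to 523 with DESeq2, 3384 with the set and 33 with only the groups compared, and the male from 340 to 757, 3589 and 938.

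The replicate numbers of the labels do not pair the libraries: deviations of same-numbered libraries from their group means correlated at -0.237 (wild type and male knockout), 0.426 (wild type and female knockout) and -0.231 (the knockouts) over 14521 genes. With the replicate block the member counts were 0, 0, 1 and 0, with Hapln1 at 1.28 (adjusted p = 0.0318, edgeR), and 329, 481, 818 and 5 genes were called. With the block beside group and set, 5 members and 4112 genes were called between sets. Members with few reads, Matn1, Matn3 and Comp, are limited by depth.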

Other observations

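The fit of opposite set shifts, made because such shifts had been seen in the members and with 1 wild-type library per set, put 25 genes past the threshold in edgeR, 15 in the members' direction and 10 in the other. With DESeq2 it was 1 gene, with both knockouts as 1 group 1, and from 3 to 90 in that last fit with each knockout library left out. The genes below were chosen after their values were seen, and their values are descriptions.

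Lars2, a mitochondrial tRNA synthetase gene, had the members' order, with 1066 and 568 CPM in wt1 and wt2, 6119 and 3116 in mko1 and mko2, and 3065 and 3599 in fko1 and fko2 (log2 difference 1.51 ± 0.256). Rn45s, the ribosomal RNA precursor, stood at 9368 and 3830, 49716 and 31281, and 33172 and 29949 CPM in the same order (1.55 ± 0.305), so that its female knockout did not follow the male. The 10 most abundant genes include Lars2 and Rn45s, whose part in the members' shifts was not tested. With scaling factors computed without those 10 genes, 2 members and 13 genes were past the threshold. Their part in the members' shifts was not tested.

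Mgp, an inhibitor of mineralisation made by cartilage, stood at 9.99 and 4.55 CPM in wt1 and wt2, 8.73 and 6.18 in mko1 and mko2, and 5.77 and 8.37 in fko1 and fko2 (1.65 ± 0.352). Pitx1, a homeobox gene of the lower jaw and hindlimb, stood at 22.6 and 5.58, 25.3 and 3.55, and 18.3 and 13.2 CPM in the same order (3.02 ± 0.650), so that its female knockout did not follow the male either. Scin, an actin-severing protein, stood at 2.89 and 1.24, 5.07 and 2.26, and 2.58 and 6.88 CPM.

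Among the 10 genes of the other direction was Prph, an intermediate filament gene of peripheral neurons (-1.98 ± 0.354), the only one of the 8 neuron markers past the threshold. Tuba1c, an alpha tubulin, had the smallest p of all, with 20.8 CPM in wt1 against 74.9 to 127 in the other 5 libraries. Sncg was at 53.4 CPM in mko2 and between 9.53 and 33.9 in the other libraries.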
